A study of Mus musculus with 5 samples.

Results

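Gluconeogenesis and hepatic glucose output were followed through 9 genes in the liver of late mouse embryos (E18.5). The genes were chosen by name, as the enzymes, carriers and regulators of the pathway, and 9 of the 10 symbols looked for were among the 23022 genes of the authors' deposited table, glucose-6-phosphatase being listed as G6pc. All 9 had a mean above 1000 normalized counts, from 2309 for Ppargc1a to 63425 for Fbp1. The 4N group held 3 livers of embryos that were Hhex knockout and had received 4N-ESCs, tetraploid embryonic stem cells positive for td-Tomato, as blastocysts. The WT group held 2 livers of normal embryos of the same day, and husbandry was described as normal for all. Ploidy, the injected cells' origin, the Hhex genotype of the host and the injection itself all separate the groups and cannot be told apart here. The labels name neither the line of the 4N-ESCs nor the share of host cells in a liver, and they do not say whether the livers of a group came from separate litters, so the p-values measure only the spread between these samples. The table gave the mean over all 5 libraries, the log2 fold change, its standard error (SE) and a Wald test for each gene. Single-library values are not analysed here, so neither the value in each liver nor any overlap of the groups can be given.

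Gluconeogenesis makes glucose from lactate, alanine, other amino acids and glycerol, and it runs backwards along glycolysis except at 3 steps that glycolysis cannot reverse. Pyruvate carboxylase (Pcx) and phosphoenolpyruvate carboxykinase (Pck1 in the cytosol, Pck2 in mitochondria) bypass pyruvate kinase, fructose-1,6-bisphosphatase (Fbp1) bypasses phosphofructokinase, and glucose-6-phosphatase (G6pc) with its carrier Slc37a4 bypasses the hexokinases and frees glucose, which leaves the hepatocyte through the transporter Slc2a2. Glucagon, through cyclic AMP and CREB, and glucocorticoids raise the pathway's genes, the coactivator Ppargc1a and the insulin-restrained factor Foxo1 amplify this, and in rodents the pathway is known to be switched on around birth, when the placental glucose supply ends.

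The promoters of Pck1, G6pc and Ppargc1a, whose transcripts were lower in 4N liver, and of Pck2, whose transcripts were higher, are shown to compare the letters around their start sites. The sequences are RefSeq's for build GRCm38.p6, 250 bases before to 50 bases after the start, at chr2:173152823-173153122 on the plus strand for Pck1, chr11:101367466-101367765 on the plus strand for G6pc, chr5:51567676-51567975 on the minus strand for Ppargc1a and chr14:55540016-55540315 on the plus strand for Pck2. Each is written 5′ to 3′ along the gene, and capitals mark the matches to the motifs described after them.
Pck1: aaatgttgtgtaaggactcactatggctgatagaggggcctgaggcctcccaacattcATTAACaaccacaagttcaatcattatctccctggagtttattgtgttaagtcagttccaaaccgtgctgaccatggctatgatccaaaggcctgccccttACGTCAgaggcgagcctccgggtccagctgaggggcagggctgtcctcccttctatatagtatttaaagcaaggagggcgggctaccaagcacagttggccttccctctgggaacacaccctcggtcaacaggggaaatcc
G6pc: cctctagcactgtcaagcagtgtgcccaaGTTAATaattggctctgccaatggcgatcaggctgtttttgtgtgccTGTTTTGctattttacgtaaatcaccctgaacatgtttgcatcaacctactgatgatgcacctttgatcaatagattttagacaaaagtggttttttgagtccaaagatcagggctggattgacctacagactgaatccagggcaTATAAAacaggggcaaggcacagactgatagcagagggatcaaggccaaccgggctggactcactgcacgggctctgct
Ppargc1a: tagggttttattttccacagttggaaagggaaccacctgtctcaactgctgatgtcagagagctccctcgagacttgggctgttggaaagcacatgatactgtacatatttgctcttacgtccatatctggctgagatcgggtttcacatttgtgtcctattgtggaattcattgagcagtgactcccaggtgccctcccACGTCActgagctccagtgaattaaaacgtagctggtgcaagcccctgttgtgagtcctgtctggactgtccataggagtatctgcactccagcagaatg
Pck2: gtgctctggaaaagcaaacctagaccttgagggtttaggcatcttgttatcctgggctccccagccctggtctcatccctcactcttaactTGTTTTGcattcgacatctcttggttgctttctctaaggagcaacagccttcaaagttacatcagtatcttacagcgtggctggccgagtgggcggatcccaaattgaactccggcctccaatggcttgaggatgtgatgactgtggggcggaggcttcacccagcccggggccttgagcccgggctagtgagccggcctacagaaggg
The letters ACGTCA, the half-site bound by CREB (the cyclic AMP response element, CRE), began 91 bases before the start in Pck1 and 50 bases before it in Ppargc1a. They also matched in Slc37a4, which was not called, so 3 of the 9 members held them in at least 1 promoter, against 7.51% of all 32851 RefSeq promoters. The members are counted by gene and the shares by single promoter, so these are unlike units. In Slc37a4 the match lies in promoters that overlap. The core of insulin response sequences, TGTTTTG, matched in G6pc and, among the genes shown, also in Pck2, and 6.28% of all promoters held it. The HNF1 half-site GTTAAT, bound by a factor of hepatocyte identity, matched in Pck1 and G6pc against 7.1% of all promoters, and the TATA box TATAAA in G6pc and in 1 promoter of Slc37a4 against 13.6%. Searches on both strands for the full CRE TGACGTCA (1.79% of promoters), the FOXO site TGTTTAC (3.65%), the C/EBP site TTGCNNAA (10.8%) and, by name, the glucocorticoid response element (0.475%) found these letters in 0 of the members' 12 promoters. The full CRE contains the half-site, and the other motifs share no full match. The promoter of Pck2 held 1 of these matches, the one at 159 bases before its start, and those of Fbp1, Pcx, Slc2a2 and Foxo1 held 0.

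The table does not name its numerator. Genes with no reads in 1 group lie on a line whose height depends on how many libraries the other group had, and the lines stood at 3.15 (log2) on the positive and 3.82 on the negative side, against 3.18 calculated for reads in 3 libraries and 3.76 for reads in 2. Positive values were therefore read as higher in 4N. Hhex, the gene missing from the hosts, stood at 0.55 (SE 0.33, adjusted p = 0.29) per the authors' deposited table and had transcripts in both groups. The liver markers were high: albumin (Alb) was the most abundant gene and stood at 0.01 (SE 0.22) per the authors' deposited table. Summed over the 28 listed hepatocyte markers, the fitted group means took 22.8% of all normalized counts in WT and 22.5% in 4N. That sum was mostly Alb, Trf and Afp, while the authors' deposited table called 13 of the 28 lower and 1 higher, with a median of -0.39. The 23 listed erythroid markers took 1.44% in WT and 4.75% in 4N, with 22 of them called higher and 0 lower in the authors' deposited table. The globins Hba-a1 (1.82, SE 0.39), Hbb-bs (1.71, SE 0.20) and Hbb-bt (2.03, SE 0.27) were the most abundant of them per the authors' deposited table. The part of this erythroid share in the values below was not tested. In whole liver, fewer cells of a type and less RNA per cell cannot be told apart.

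Transcripts of 5 of the 9 members were lower in 4N liver, those of 1 were higher and those of 3 did not pass. The authors' deposited table called Pck1, G6pc, Fbp1, Slc2a2 and Ppargc1a lower and Pck2 higher at an adjusted p under 0.05, the threshold for every call here. Over all genes the table called 7.41% lower and 7.94% higher, and over the 8656 genes whose mean reached 1000 it called 10.3% lower and 11.9% higher. The members' median log2 fold change was -0.68, against 0.00 over all genes. Because each log2 fold change is relative to the authors' scaling, the changes were also recentred on the median of the hepatocyte markers, which adds 0.39 to each. On that scale 2 members were lower (Pck1 and G6pc), 3 were higher (Pck2, Slc37a4 and Foxo1) and the members' median was -0.29, so the lower calls of Fbp1, Slc2a2 and Ppargc1a depended on the scaling. The same shift called 4449 of all 23022 genes higher and 1032 lower, against 1828 and 1705 under the authors' scaling. Counts of other lists on that scale, given below, belong beside 4449 and 1032. With 5 livers the Wald test's normal reference is lenient, and against the t distribution (3 degrees of freedom) 0 members and 0 genes kept an adjusted p under 0.05. The smallest adjusted p over all genes was 0.37 on that reference, so its 0 calls do not single out the members.

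**Figure D1:**
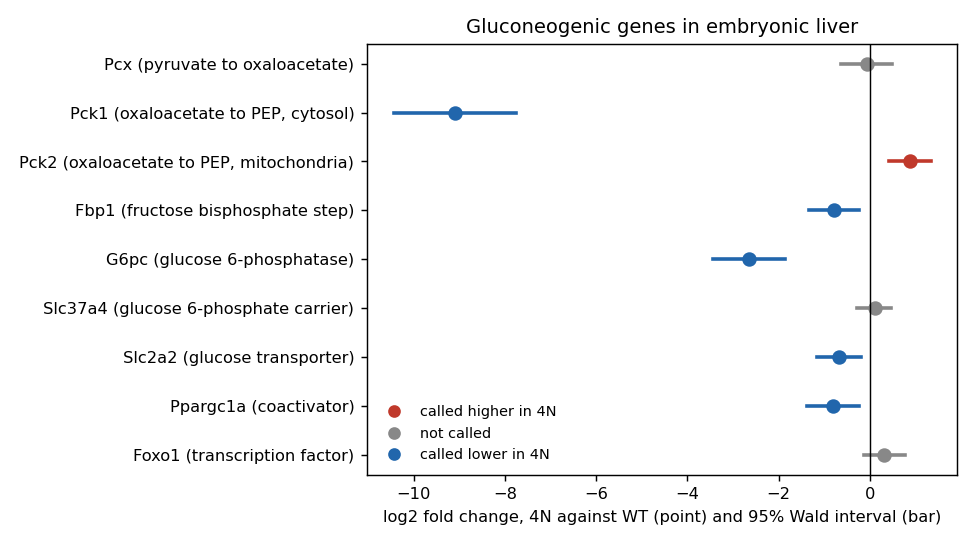
Log2 fold change of each of the 9 members, 4N against WT, as points with 95% Wald intervals as bars, ordered along the pathway with the regulators last. Pck1 stood at -9.10 and G6pc at -2.66, Pck2 alone was called higher, and the intervals of Pcx, Slc37a4 and Foxo1 crossed 0.

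Pyruvate carboxylase, which turns pyruvate into oxaloacetate in mitochondria, did not pass the test. Its fitted group means, computed from the table's mean and fold change, were 63707 normalized counts in WT and 60558 in 4N. For Pcx the authors' deposited table gave -0.07 (SE 0.28, adjusted p = 0.92). The 95% interval computed from that SE ran from -0.63 to 0.48 and so left out a 2-fold change in either direction. After recentring on the hepatocyte markers the value turned to 0.32, still not called.

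Pck1, the cytosolic carboxykinase, was lower by a far larger factor than any other member. Its fitted group mean was 118282 normalized counts in WT and 215 in 4N, where the 95% interval of the fold change allowed 85 to 546. The authors' deposited table gave -9.10 on the log2 scale (SE 0.68, adjusted p = 1.1e-37), so that 4N livers held 0.182% of the WT level, with an interval of 0.0718% to 0.462%. Among the 1181 genes whose mean reached 10000, Pck1 had the lowest fold change in the authors' deposited table, and the next, the drug-metabolizing cytochrome Cyp3a25, stood at -7.33. Pck1 also had a wide error for its level. Its SE was larger than that of 97.7% of the 262 genes with a mean within 2-fold of its own. Read as spread between livers of a group, this SE corresponds to a coefficient of variation of about 51.8%, against a median of 17.3% for those genes. The table does not show in which group this spread lay.

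Pck2, the mitochondrial carboxykinase that makes the same product, moved the other way. Its fitted group mean was 2255 normalized counts in WT and 4147 in 4N. The authors' deposited table gave 0.88 (SE 0.23, adjusted p = 0.0020), and its SE was ordinary, above that of 44.2% of genes of similar mean. Per kb of transcript, the scale on which genes can be compared, Pck1 stood at 44450 normalized counts in WT against 488 for Pck2. In 4N the order was turned, with 80.9 for Pck1 and 897 for Pck2. Pck2 thus made up 1.09% of the summed Pck1 and Pck2 level per kb in WT and 91.7% in 4N, where the interval of the Pck1 fold change allowed 81.4% to 96.6%. The rise of Pck2 was small beside the loss of Pck1, and their summed level per kb was 44938 in WT and 978 in 4N, a 46-fold difference. With lengths over all exons of each gene in place of the principal transcript, the Pck2 share was 0.831% in WT and 89.4% in 4N. No 50-base stretch of the Pck1 transcript occurred in a transcript of another gene, Pck2 included, so reads of that length cannot be shared between them.

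**Figure D2:**
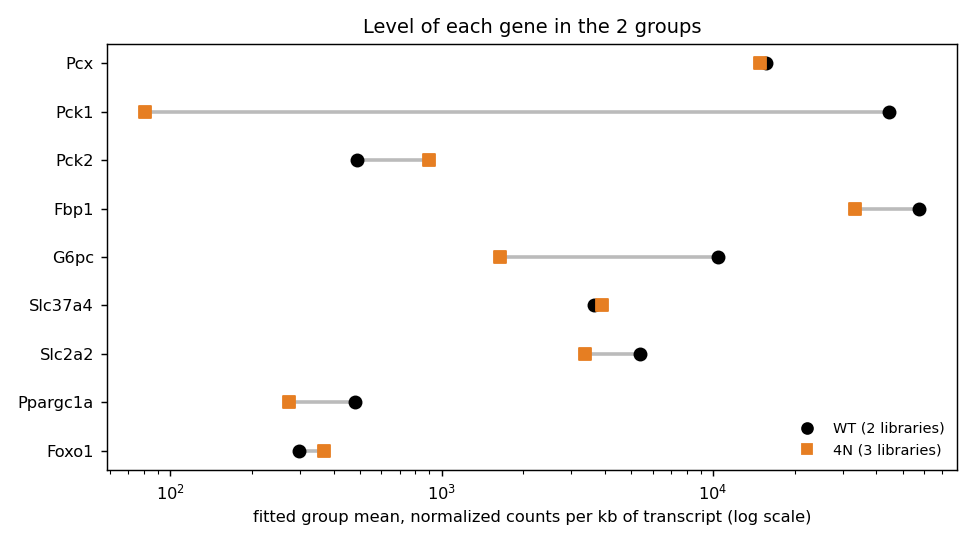
Fitted group means of the 9 members in normalized counts per kb of principal transcript, on a log axis, with WT as circles and 4N as squares. Pck1 moved from the second highest level in WT (44450) to the lowest in 4N (80.9), whereas Fbp1 was highest in both.

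Fbp1, which removes a phosphate from fructose-1,6-bisphosphate, was the most abundant member per kb in both groups, at 57291 normalized counts per kb in WT and 33279 in 4N. The authors' deposited table gave -0.78 (SE 0.28, adjusted p = 0.035), and 4N held 58.1% of the WT level with an interval of 39.8% to 84.8%. Recentred on the hepatocyte markers, the value of the authors' deposited table became -0.40 and was not called (Wald test, adjusted p = 0.33). Its paralog Fbp2, the muscle enzyme, was near the lower limit of the table with a mean of 21.1 normalized counts and did not pass (-0.26, SE 1.20, per the authors' deposited table).

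G6pc, the catalytic subunit that releases free glucose in the endoplasmic reticulum, was the member with the second largest fall. Its fitted group mean was 25107 normalized counts in WT and 3971 in 4N, a 6.32-fold difference with an interval of 3.65 to 11. The authors' deposited table gave -2.66 (SE 0.41, adjusted p = 2.7e-09), and only 91 of the 8656 genes whose mean reached 1000 had a lower value. Like Pck1, G6pc had a wide error for its level, an SE above that of 98.8% of 1776 genes of similar mean and a corresponding coefficient of variation of about 30.7% against a median of 17.0%. These were the members with the largest SEs, and both stayed lower when recentred on the hepatocyte markers. G6pc3, the subunit found in most tissues, did not pass (-0.35, SE 0.35), and G6pc2, the form of pancreatic islets, was called lower at a mean of only 11.6 normalized counts (-4.93, SE 1.78, adjusted p = 0.040), both per the authors' deposited table.

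Slc37a4, the carrier that brings glucose 6-phosphate to G6pc, did not pass the test. Its fitted group means were 8541 normalized counts in WT and 9143 in 4N. The authors' deposited table gave 0.10 (SE 0.19, adjusted p = 0.83), with an interval of -0.28 to 0.47. Per kb, G6pc exceeded Slc37a4 by 2.85-fold in WT, whereas in 4N Slc37a4 exceeded G6pc by 2.37-fold. Recentred on the hepatocyte markers, the value of the authors' deposited table became 0.49 and was called higher (Wald test, adjusted p = 0.047). Among its paralogs, sugar phosphate carriers of the same family, the authors' deposited table called Slc37a1 lower (-1.61, SE 0.28, adjusted p = 2.6e-07) and Slc37a2 higher (1.12, SE 0.35, adjusted p = 0.013), and Slc37a3 did not pass (-0.47, SE 0.24).

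Slc2a2 (GLUT2), the low-affinity transporter through which glucose crosses the hepatocyte membrane, was the called member nearest to the threshold. Its fitted group mean was 30017 normalized counts in WT and 18732 in 4N, 62.4% of WT with an interval of 44.4% to 87.7%. The authors' deposited table gave -0.68 (SE 0.25, adjusted p = 0.045), while the uncalled member nearest to the threshold, Foxo1, had an adjusted p of 0.43. Recentred on the hepatocyte markers, the value of the authors' deposited table became -0.29 (Wald test, adjusted p = 0.44). Of 9 other facilitative glucose transporters, 1 was called higher and 1 lower (11.1% each), beside 7.94% and 7.41% of all genes. Slc2a1 (GLUT1), the transporter of fetal tissues and red cells, rose by 2.66 (SE 0.31, adjusted p = 6.7e-16), and the urate and glucose transporter Slc2a9 fell (-0.79, SE 0.23, adjusted p = 0.0060), per the authors' deposited table. Recentred on the hepatocyte markers, Slc2a9 of the authors' deposited table lost its call (-0.40, adjusted p = 0.20) and 0 of these transporters were lower. Per kb Slc2a2 exceeded Slc2a1 by 4.39-fold in WT, and in 4N Slc2a1 exceeded Slc2a2 by 2.31-fold. The erythroid markers rose in the same livers (median 1.57), and their part in the rise of Slc2a1 was not tested. Slc2a3 (0.10, SE 0.24), Slc2a4 (0.53, SE 0.38) and Slc2a8 (-0.82, SE 0.31, adjusted p = 0.054, called lower after recentring on genes whose mean reached 10000) missed the threshold in the authors' deposited table.

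**Figure D3:**
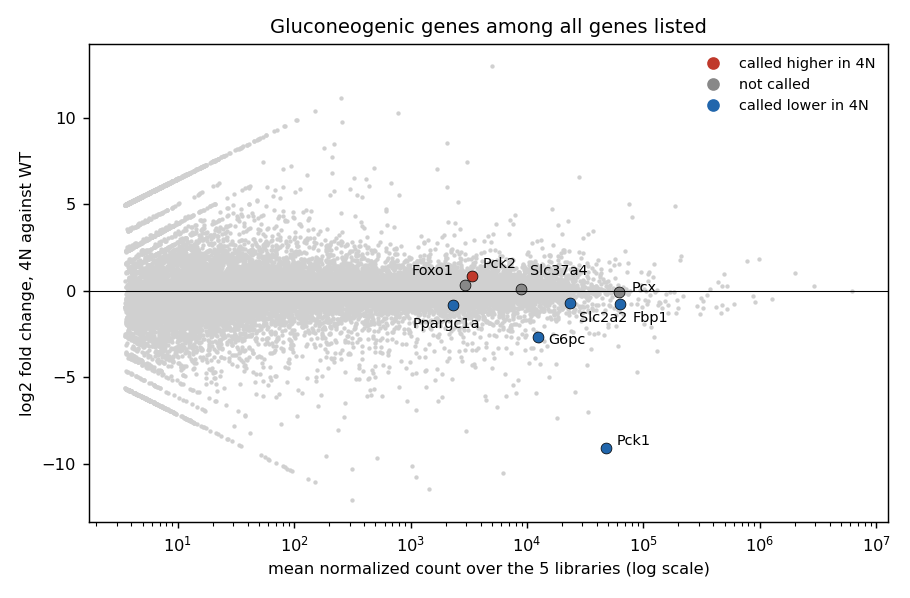
Mean normalized count over the 5 libraries (log axis) against the log2 fold change, 4N against WT, for all 23022 genes in grey and the 9 members in colour by call. Pck1 lies apart from genes of its level at -9.10, G6pc at the lower edge at -2.66, and the other members within the cloud.

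The regulators moved less than Pck1 and G6pc. Ppargc1a (PGC-1 alpha), the coactivator induced by fasting and cyclic AMP, had a fitted group mean of 3110 normalized counts in WT and 1775 in 4N. The authors' deposited table gave -0.81 (SE 0.28, adjusted p = 0.033), and on the scale of the hepatocyte markers it stood at -0.42 (adjusted p = 0.30). Its relatives Ppargc1b (0.62, SE 0.34) and Pprc1 (-0.24, SE 0.21) missed the threshold in the authors' deposited table. Foxo1, the forkhead factor that insulin keeps out of the nucleus, had fitted group means of 2579 normalized counts in WT and 3209 in 4N. The authors' deposited table gave 0.31 (SE 0.23, adjusted p = 0.43), and on the scale of the hepatocyte markers Foxo1 was called higher at 0.70 (adjusted p = 0.015). Foxo1 was also the member with the most sequence in common with other genes, 586 of the 8616 stretches of 50 bases in its transcript (6.8%), against 1.86% for Pck2, 0.14% for Ppargc1a and 0 for the other 6, so its reads may be counted with some uncertainty. Its paralogs Foxo3 (1.49, SE 0.20, adjusted p = 5.1e-12) and Foxo4 (1.62, SE 0.27, adjusted p = 5.8e-08), factors restrained by insulin in the same way, were called higher in the authors' deposited table. Foxo6, at a mean of 16 normalized counts, did not pass (-0.55, SE 1.65, per the authors' deposited table).

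Of 31 other transcription factors and cofactors of the pathway's genes, 27 were not called, and most genes of the table were not called either. The authors' deposited table called 3 lower (9.68%) and 1 higher (3.23%), beside 7.41% lower and 7.94% higher over all genes. The list's median was -0.11 and turned to 0.28 on the scale of the hepatocyte markers. Nr0b2 (SHP), a repressor induced by bile acids, was lowest at -4.08 (SE 0.42, adjusted p = 2.9e-20) per the authors' deposited table. Creb3l3, a membrane-bound factor of the fasted liver, stood at -0.90 (SE 0.26, adjusted p = 0.0059) and Trib3, a stress-induced inhibitor of AKT, at -1.53 (SE 0.47, adjusted p = 0.012), while the forkhead factor Foxa1 stood at 0.79 (SE 0.29, adjusted p = 0.044), per the authors' deposited table. The calls of Creb3l3, Trib3 and Foxa1 depended on the scaling, whereas Nr0b2 stayed called lower after each recentring. Recentred on the hepatocyte markers, Creb3l3 (-0.51, adjusted p = 0.15) and Trib3 (-1.14, adjusted p = 0.063) of the authors' deposited table lost theirs and the list held 4 higher and 1 lower, and recentred on genes whose mean reached 10000 Foxa1 lost its call and the list held 0 higher and 5 lower. Hnf4a (-0.34, SE 0.20), which maintains hepatocyte identity, Cebpa (0.13, SE 0.29) and Rxra (-0.53, SE 0.23) were the most abundant factors that missed the threshold in the authors' deposited table, and Hnf4a turned to 0.05 on the scale of the hepatocyte markers.

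Of 27 hormone signalling genes, 21 were not called, 4 were higher (14.8%) and 2 lower (7.41%), beside 7.94% and 7.41% of all genes. Their median was 0.15. On the scale of the hepatocyte markers 9 were higher and 2 lower, beside 4449 and 1032 of all genes. The glucagon receptor Gcgr was lower at -1.73 (SE 0.30, adjusted p = 2.4e-07), from a fitted 9567 normalized counts in WT to 2894 in 4N, in the authors' deposited table. The cyclic AMP phosphodiesterases Pde4d (1.07, SE 0.23) and Pde4b (0.83, SE 0.31, adjusted p = 0.047) and the insulin receptor substrate Irs2 (0.73, SE 0.22, adjusted p = 0.0096) were higher, and Grb14, an inhibitor of the insulin receptor, was lower (-1.19, SE 0.26), per the authors' deposited table. Recentred on genes whose mean reached 10000, Pde4b of the authors' deposited table lost its call (adjusted p = 0.069). The insulin receptor Insr (0.07, SE 0.20), the protein kinase A subunit Prkar1a (-0.20, SE 0.18) and the kinase subunit Pik3r1 (-0.09, SE 0.24) missed the threshold in the authors' deposited table.

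Of 20 other genes known to respond to FOXO1, CREB, PGC-1 alpha or the glucocorticoid receptor, 7 were lower, 4 were higher and 9 were not called, with a median of -0.38 that became 0.01 on the scale of the hepatocyte markers. On that scale the counts turned to 5 lower and 7 higher, beside 1032 and 4449 of all genes. Under the authors' scaling 35% were lower and 20% higher, beside 7.41% and 7.94% of all genes. The lower ones included genes with changes between those of G6pc and Pck1. The authors' deposited table gave -5.43 (SE 0.22, adjusted p = 3.3e-126) for the tyrosine aminotransferase Tat and -5.67 (SE 0.36) for the tryptophan dioxygenase Tdo2. It gave -4.07 (SE 0.33) for the apolipoprotein Apoc3. There followed -2.33 (SE 0.26) for Cpt1a, which admits fatty acids to mitochondria, -1.30 (SE 0.25) for the cyclic AMP-responsive repressor Crem and -0.91 (SE 0.24) for the urea cycle enzyme Cps1, in the authors' deposited table. Igfbp1, a secreted target of FOXO1, was lower by less (-0.73, SE 0.21, adjusted p = 0.0068), and the cofactor Cited2 was higher (0.79, SE 0.22, adjusted p = 0.0041), per the authors' deposited table. Recentred on the hepatocyte markers, Cps1 (-0.52, adjusted p = 0.10) and Igfbp1 (-0.34, adjusted p = 0.25) of the authors' deposited table lost their calls. Fkbp5, a glucocorticoid target, did not pass (-0.14, SE 0.21), nor did the lipid transfer gene Mttp (-0.51, SE 0.23) or the fasting receptor Ppara (-0.42, SE 0.28), per the authors' deposited table.

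Genes that feed the pathway fell more often than they rose, as did the hepatocyte markers. Of 25 genes for the entry of lactate, amino acids and glycerol, 12 were lower (48%) and 1 was higher (4%). The shares were 46.4% and 3.57% for the hepatocyte markers and 7.41% and 7.94% for all genes. The median of the 25 genes was -0.85 (-0.46 on the scale of the hepatocyte markers, with 10 lower and 4 higher). Aqp9, the channel for glycerol uptake, stood at -2.22 (SE 0.25, adjusted p = 3.5e-16), and Gpd1, which turns glycerol 3-phosphate into the pathway's triose, at -1.30 (SE 0.27), per the authors' deposited table. For amino acids, the authors' deposited table gave -4.57 (SE 0.52, adjusted p = 3.0e-16) for the serine dehydratase Sds, -1.99 (SE 0.42) for the alanine aminotransferase Gpt, -1.60 (SE 0.19) for the aspartate aminotransferase Got1 and -1.30 (SE 0.23) for the amino acid transporter Slc38a4. Among mitochondrial carriers, the dicarboxylate carrier Slc25a10 fell by 1.87 (SE 0.28) and the pyruvate carrier subunit Mpc2 by 1.15 (SE 0.20) as log2 values, per the authors' deposited table. Slc25a13 (-0.77, SE 0.21) was also called lower there. The carriers Slc25a11 (-0.31, SE 0.25), Slc25a12 (0.33, SE 0.21), Slc25a1 (0.01, SE 0.26) and Mpc1 (-0.85, SE 0.32) were not called in the authors' deposited table. Ldha (0.58, SE 0.22, adjusted p = 0.056), which interconverts lactate and pyruvate, Got2 (-0.17, SE 0.20) and Mdh1 (-0.39, SE 0.22) missed the threshold in the authors' deposited table.

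Enzymes that run against the gluconeogenic steps were more often higher than lower. Of 21 genes listed for these opposing reactions, 10 were higher and 1 lower in the authors' deposited table, with a median of 0.77 (0.72 and 1.16 after recentring on genes whose mean reached 10000 and on the hepatocyte markers). The list's shares were 47.6% higher and 4.76% lower, beside 7.94% and 7.41% of all genes. That list also holds inhibitors of the opposing enzymes, the glucokinase inhibitor Gckr and the pyruvate dehydrogenase kinases Pdk1 to Pdk4. Without them, a count made after the values were seen, 9 of 16 genes were higher and 0 lower in the authors' deposited table, with a median of 0.97. At the pyruvate step, the pyruvate kinase Pklr stood at 1.37 (SE 0.20, adjusted p = 1.4e-09) beside -9.10 for Pck1 in the authors' deposited table. At the fructose bisphosphate step, the authors' deposited table gave 1.62 (SE 0.25) for Pfkfb1 and 1.77 (SE 0.28) for Pfkfb3, which make or break the signal that drives phosphofructokinase and restrains Fbp1. At the glucose step it gave 5.14 (SE 0.31, adjusted p = 5.2e-60) for Hkdc1, 1.86 (SE 0.26) for Hk2 and 1.03 (SE 0.26) for Hk3, all hexokinase genes, and -1.02 (SE 0.24) for Gckr, the inhibitor of glucokinase, in the authors' deposited table. Pdk1, which inhibits pyruvate dehydrogenase, stood at 1.27 (SE 0.20), and Pkm (0.55, SE 0.27), Pdhb (-0.08, SE 0.18) and Pdha1 (0.00, SE 0.20) did not pass, in the authors' deposited table. Differences between these fold changes and the members' were not tested, since the table does not give how they vary together. The erythroid markers moved the same way as this list, and their part in it was not tested.

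The reversible enzymes, shared by both directions, were higher in 7 of 14 cases and lower in 1, with a median of 0.60. Those shares were 50% and 7.14%, beside 7.94% and 7.41% of all genes. On the scale of the hepatocyte markers 9 were higher and 0 lower, whereas after recentring on genes whose mean reached 10000 only 4 were higher and 1 lower. On that latter scale Aldoc (Wald test on the authors' deposited table, adjusted p = 0.061), Gapdh (0.058) and Gpi1 (0.073) lost their calls. Aldoa (0.93, SE 0.25) and Aldoc (0.73, SE 0.26), which cleave fructose bisphosphate, were higher in the authors' deposited table. So were the mutases Bpgm (2.08, SE 0.24), which acts mainly in red cells, and Pgam1 (1.70, SE 0.23), the enolase Eno1 (0.80, SE 0.26), the dehydrogenase Gapdh (0.64, SE 0.23) and the isomerase Gpi1 (0.63, SE 0.23), per the authors' deposited table. Pgk1 (0.56, SE 0.21, adjusted p = 0.0501), Tpi1 (0.47, SE 0.22) and Eno1b (0.11, SE 0.33) missed the threshold in the authors' deposited table.

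**Figure D4:**
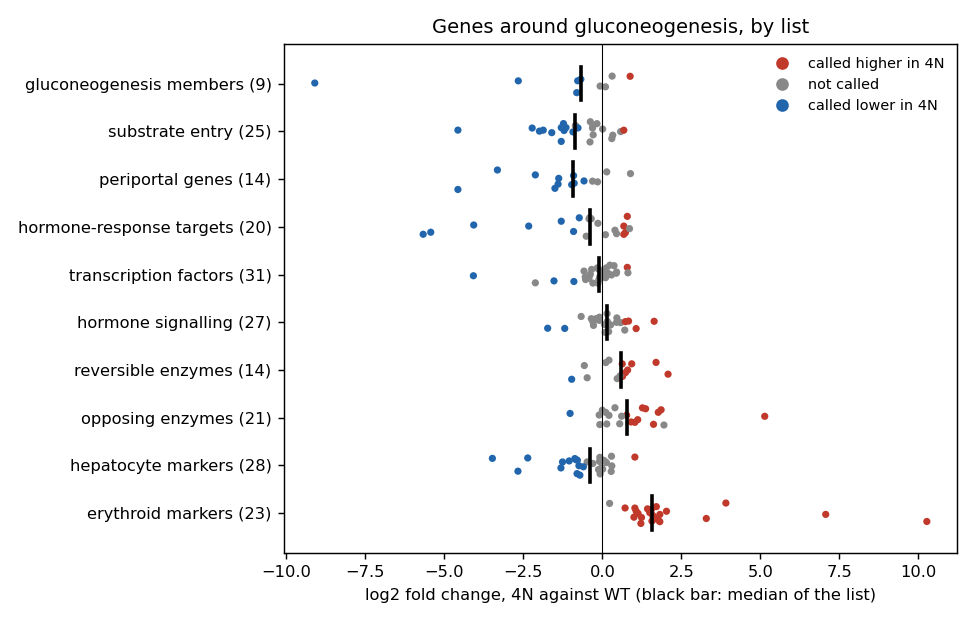
Log2 fold change, 4N against WT, of each listed gene around gluconeogenesis (points, coloured by call), by list with the number of genes, and the list's median as a black bar. Medians lie below 0 for the members (-0.68), substrate entry (-0.85) and periportal genes (-0.94). They also lie below 0 for the hepatocyte markers (-0.39), the hormone-response targets (-0.38) and the transcription factors (-0.11). Medians above 0 are those of hormone signalling (0.15), the reversible enzymes (0.60), the list for opposing reactions (0.77) and erythroid markers (1.57).

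Gluconeogenesis is assigned to periportal hepatocytes, those near the incoming blood, and other genes known as periportal were counted. Genes of the opposite zone were not counted, so a pattern by zone was not tested. Of 14 periportal genes, 10 were lower (71.4%) and 0 higher. The hepatocyte markers were 46.4% lower and 3.57% higher, and all genes 7.41% and 7.94%. The periportal median was -0.94 (-0.55 on the scale of the hepatocyte markers, with 7 lower and 1 higher). The authors' deposited table gave -3.32 (SE 0.73) for the cytochrome Cyp2f2, -2.12 (SE 0.30) for the antibody carrier Pigr, -1.50 (SE 0.22) for the glutaminase Gls2, -1.40 (SE 0.19) for the lipid droplet enzyme Hsd17b13, -1.38 (SE 0.24) for the histidase Hal and -0.97 (SE 0.22) for the urea cycle enzyme Asl. Ass1 (0.14, SE 0.21), Cdh1 (-0.31, SE 0.20) and Ctsc (-0.15, SE 0.23) missed the threshold in the authors' deposited table. Sds and Cps1 stand in this list and in another, and other lists also share genes, among them Irs2 and Ppara, so the lists are not independent. The most abundant general hepatocyte markers were Alb, Trf (0.30, SE 0.20) and Afp (1.03, SE 0.26), the fetal albumin, in the authors' deposited table.

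Markers of other tissues that make glucose or use Pck1 were also counted. Of 10 kidney tubule markers 4 were listed, and their summed fitted means were 253 normalized counts in WT and 432 in 4N, where Slc22a8 (0.39, SE 0.77), Lrp2 (2.15, SE 0.73, adjusted p = 0.026) and Cubn (0.35, SE 0.60) were the most abundant in the authors' deposited table. Of 10 intestinal markers 7 were listed, with a sum of 13198 in WT and 5650 in 4N that was mostly Anpep (-1.03, SE 0.21) and Fabp2 (-3.05, SE 0.32), and Vil1 was higher (2.11, SE 0.41), per the authors' deposited table. Of 10 adipocyte markers 5 were listed, with 0 higher and 1 lower (20%), beside 7.94% higher and 7.41% lower over all genes. Their summed fitted means were 68891 in WT and 72379 in 4N. Lpl (0.16, SE 0.23), Adipor2 (-0.28, SE 0.21) and Fabp4 (0.08, SE 0.27) led them in the authors' deposited table. The defining markers Slc34a1 and Umod of kidney, Sis and Cdx2 of intestine and Adipoq and Plin1 of fat were not among the genes listed. Of 12 macrophage markers 5 were higher (41.7%) and 1 lower (8.33%), beside 7.94% and 7.41% of all genes, with a median of 0.55. Lyz2 (0.50, SE 0.24), Csf1r (0.87, SE 0.20) and Clec4f (-0.24, SE 0.21) were the most abundant of them in the authors' deposited table.

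**Figure D5:**
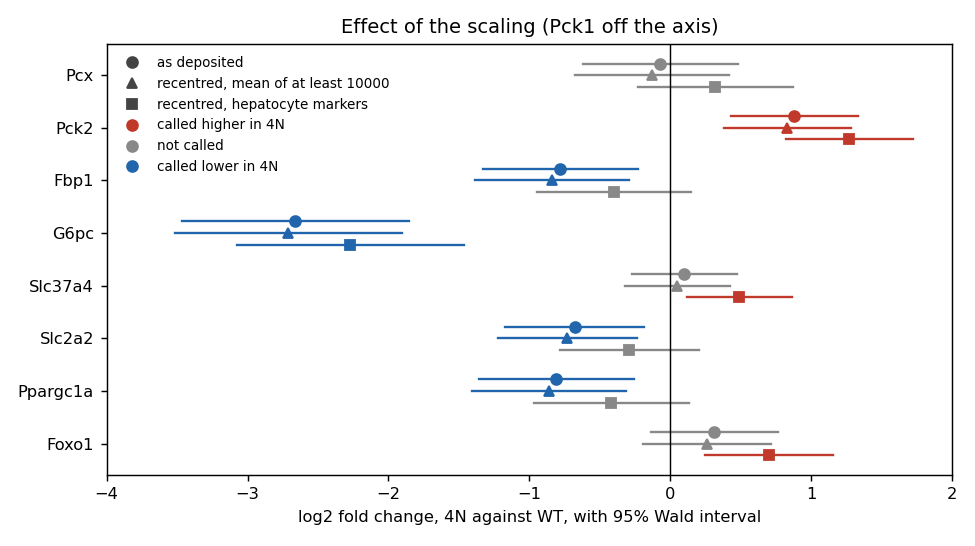
Log2 fold change, 4N against WT, with 95% Wald intervals for 8 members under the authors' scaling (circles), after recentring on genes whose mean reached 10000 (triangles) and after recentring on the hepatocyte markers (squares), coloured by call. G6pc stayed lower and Pck2 higher on all 3 scales, and Fbp1, Slc2a2 and Ppargc1a lost their calls on the last; Pck1, lower on all 3, lies off the axis.

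The order of the members by level per kb changed at several places between the groups. In WT it ran Fbp1, Pck1, Pcx, G6pc, Slc2a2, Slc37a4, Pck2, Ppargc1a and Foxo1, and in 4N Fbp1, Pcx, Slc37a4, Slc2a2, G6pc, Pck2, Foxo1, Ppargc1a and Pck1. The neighbours Pck2 and Ppargc1a in WT (488 and 481 normalized counts per kb), and Slc37a4 and Slc2a2 in 4N (3901 and 3364), changed places when lengths over all exons were used, and Pck2 then came last in WT. A spread over livers of one group cannot be given for these levels. For the 3 uncalled members, changes below 0.76 for Pcx, 0.51 for Slc37a4 and 0.62 for Foxo1 would not have been called at their SEs.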

How the data were processed

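Poly(A)-selected RNA of 5 mouse livers (3 in 4N, 2 in WT) was sequenced, with GRCm39 as genome per the submitters' processing notes. Aligner, counter and test software were not given in the sources used here. Per the file headers, the authors deposited 1 comparison table with the mean normalized count of each gene over all libraries (a signal), the log2 fold change and its SE, the Wald statistic (a score), p-values and adjusted p-values. Checked on the values, the statistic was the log2 fold change over its SE, p the 2-sided normal tail and adjusted p the Benjamini-Hochberg adjustment over 23022 genes, with 0 missing values. Depth per library is unknown, and the means sum to 78112274. The median SE was 0.24 at means of 1000 or more.

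The members, lists and tests were chosen with earlier results of these data known. Calls are the authors' Wald test at an adjusted p under 0.05. No test over lists was made, and listed genes are counted. Fitted group means solve the mean over 3 and 2 libraries together with the fold change. Intervals are 95% Wald intervals. The coefficient of variation solves the SE of a negative binomial fit at equal depth, and so rests on the authors' dispersion estimate. Lengths are of the longest principal transcript in GENCODE M21 (GRCm38) or, as an alternative chosen after the data were seen, of all exons. Stretches of 50 bases were compared on both strands over all M21 transcripts. Of the hepatocyte markers, all but Amt encode secreted proteins. Named genes were all members and paralogs, in each other list up to 8 called genes by smallest adjusted p and the 3 most abundant uncalled ones, in marker lists the 3 most abundant, and Hhex, Alb and Hbb-bs. Cyp3a25, the mitochondrial carriers other than Slc25a10 and Mpc2, and the markers said not to be listed were singled out after values were seen. Of the genes this rule names, 2 are not reported here. The code for the calls, the fitted group means and the lines that give the sign was run on simulated data. The simulated calls used the authors' SEs with normal noise, so they do not test the normal reference or the choice of scaling. Alternatives were recentring on the hepatocyte markers or on genes whose mean reached 10000, a t reference (3 degrees of freedom), a threshold of 0.01, a minimum mean of 50 and a null of up to 1.5-fold. Software was scipy 1.17.1, numpy 2.4.6, matplotlib 3.10.9 and pandas 2.3.3 under Python 3.11.15.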

Additional observations from a re-analysis of the deposited data

How the results depend on the processing

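With a minimum mean of 50, or recentring on genes whose mean reached 10000 (which moves each log2 fold change by -0.05), all 9 members kept their direction and call, and the counts over all genes and over the 166 other pathway genes stayed within 1.5 times those reported (1 member higher and 5 lower, 1828 and 1705 genes, 30 and 37 pathway genes). The test against a 1.5-fold change called 0 members higher and 2 lower (Pck1 and G6pc), 521 and 588 of all genes, and 12 and 18 of the pathway genes. At an adjusted p under 0.01, 2 members were lower, and 1210 genes and 19 pathway genes were higher. The t reference with 3 degrees of freedom called 0 members in either direction, 0 and 0 genes and 0 and 0 pathway genes (smallest adjusted p over all genes 0.37), although 2513 genes and 3 members had an unadjusted p under 0.05 (Pck1 9.2e-04, G6pc 0.0072). Recentring on the hepatocyte markers called 3 members higher and 2 lower, 4449 and 1032 genes (81.2% of calls higher against 51.7%), and 50 pathway genes higher. It reversed Pcx to 0.32 and the uncalled Cdh1 (0.08), Ctsc (0.23), Fkbp5 (0.25), G6pc3 (0.04), Got2 (0.22), Hnf4a (0.05), Mdh1 (0.00), Pdha1 (0.39), Pdhb (0.31), Pik3r1 (0.29), Pprc1 (0.15) and Prkar1a (0.19). The shift itself makes these changes, and which scaling is nearer to the livers was not tested. Fits without each replicate and count tests were not run, since single-library values are not analysed here. No paired analysis was possible because the groups share no replicate number. Depth per library is unknown, so no limit from counting is given.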
